A study of Homo sapiens with 18 samples.

Results

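The genes described here are 37 genes of glycolysis and of the response to low oxygen, taken by symbol from a fixed list, out of 63677 genes in the deposited table. The list follows gene function and sets no threshold on expression, and it was drawn up with earlier results of these data known. All 37 were found, and all 37 were among the 18121 genes with enough counts to be tested. They are 3 transporters of glucose and lactate, 15 enzymes from hexokinase to pyruvate kinase, 4 genes that act on pyruvate, 2 regulators of phosphofructokinase, 4 genes of the oxygen-sensing machinery and 9 further genes known to respond to low oxygen. Their RNA was measured in WM989, an established human melanoma cell line, grown in culture. Cells received either the solvent DMSO or 4 µM EPZ5676 for 7 days. EPZ5676 blocks DOT1L, an enzyme that methylates histone H3. From each treatment came libraries of the bulk population, of cells high for NGFR and EGFR, and of cells low for both, with 3 libraries in each of the 6 groups. NGFR, the nerve growth factor receptor, and EGFR, the epidermal growth factor receptor, are cell-surface proteins that mark the rare WM989 cells studied for drug resistance. Every group was 1 cell line, and the labels do not say whether replicates were separate cultures, so p-values measure the spread between these libraries.

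Glycolysis splits glucose into pyruvate in the cytosol, and many of its steps are carried by isoenzymes encoded by separate genes. Pyruvate is either reduced to lactate and exported or passed to the mitochondria, a choice on which lactate dehydrogenase and the pyruvate dehydrogenase kinases act. When oxygen is short, the HIF alpha proteins escape the prolyl hydroxylases that mark them for destruction, pair with ARNT and raise transporters, glycolytic enzymes and a further set of genes, many of which serve as hypoxia markers. In tumour cells, melanoma among them, many of these genes are also active when oxygen is plentiful. HIF alpha is controlled mainly as a protein, which was not measured here.

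Gene counts ran from 13383741 to 26311674 per library. Levels are in CPM, each library's counts relative to its TMM-scaled total, and differences between groups are log2 fold changes with a standard error. That error was worked back from the test, as the absolute log2 fold change over the square root of the F statistic. A gene is said to have passed, or to be higher or lower, at an adjusted p of 0.05 or less in edgeR's quasi-likelihood test with Benjamini-Hochberg adjustment over all 18121 genes. NGFR stood at 563, 537 and 617 CPM in the DMSO high libraries and at 0.639, 1.61 and 0.764 CPM in the DMSO low libraries. The melanocyte markers PMEL, MLANA, SOX10, MITF, TYR and DCT had counts in all 6 groups, with a summed level of 11100 to 11600 CPM in DMSO low and 1120 to 1330 CPM in DMSO high libraries. DMSO bulk replicate 1 stood apart from the other two DMSO bulk libraries: NGFR was at 220 CPM there, against 12.6 and 9.24 CPM. In 6 libraries (DMSO high replicate 3, EPZ5676 bulk replicates 1 and 3, EPZ5676 high replicates 1 and 2, and EPZ5676 low replicate 1), 18.88% to 28.65% of the reads lay on no gene, against 12.8% to 15.17% in the other 12. In these libraries of many cells, fewer cells of a type and less RNA per cell cannot be told apart.

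High and low cells were compared first, within each treatment. Under DMSO, 17 of the 37 genes were higher and 14 lower in high cells, or 83.8% of them, where 56.3% of all tested genes passed (29.6% higher and 26.7% lower). Under EPZ5676, 16 were higher and 12 lower, or 75.7%, where 48.9% of all tested genes passed (25.8% higher and 23.1% lower). All 9 of the further hypoxia response genes were higher in high cells under both treatments, with a median log2 fold change of 1.00 under DMSO and 0.79 under EPZ5676. Of the 15 enzymes from hexokinase to pyruvate kinase, 3 were higher and 11 lower under DMSO (median -0.25), and 3 were higher and 9 lower under EPZ5676 (median -0.19). The medians over all tested genes were 0.03 and 0.02. High and low libraries did not overlap for 30 of the 37 genes under DMSO, 16 above and 14 below, where 31.6% and 28.7% of all tested genes stood above and below. Under EPZ5676 17 stood above and 13 below, where 31.5% and 28.8% of all tested genes did. Without the 6 libraries with many reads on no gene, 28 of the 37 genes passed under DMSO, where 8773 of 19455 genes did. Under EPZ5676 that fit was left with 1 high library, and calls were lost among the 37 genes and over all genes. The calls lost under EPZ5676 were those of ALDOA, ALDOC, ANKRD37, DDIT4, EGLN1, HK1, HK2, LDHB, NDRG1, PDK3, PFKL, PFKP, PGAM1, PGK1 and PKM, and the 3 lost under DMSO those of HK1, PDK1 and SLC2A1. Under EPZ5676 the calls of ALDOC, ANKRD37, CA9, PDK3 and PFKP were also lost when single libraries were left out. The melanocyte markers moved with the sort, as did the fibroblast markers, summed to 1080 to 1410 CPM in DMSO high and 72.4 to 75.5 CPM in DMSO low libraries, with 6 of 7 tested members higher and LUM lower in high cells. Endothelial markers summed to 10.7 to 13.2 CPM in DMSO high and 2.41 to 3.06 CPM in DMSO low libraries, and PECAM1 was at 0 in all 6 groups. Both tested members (VWF and KDR) were higher in high cells under DMSO, and 1 of the 2 was under EPZ5676. The part of these markers in the results was not tested.

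**Figure D1:**
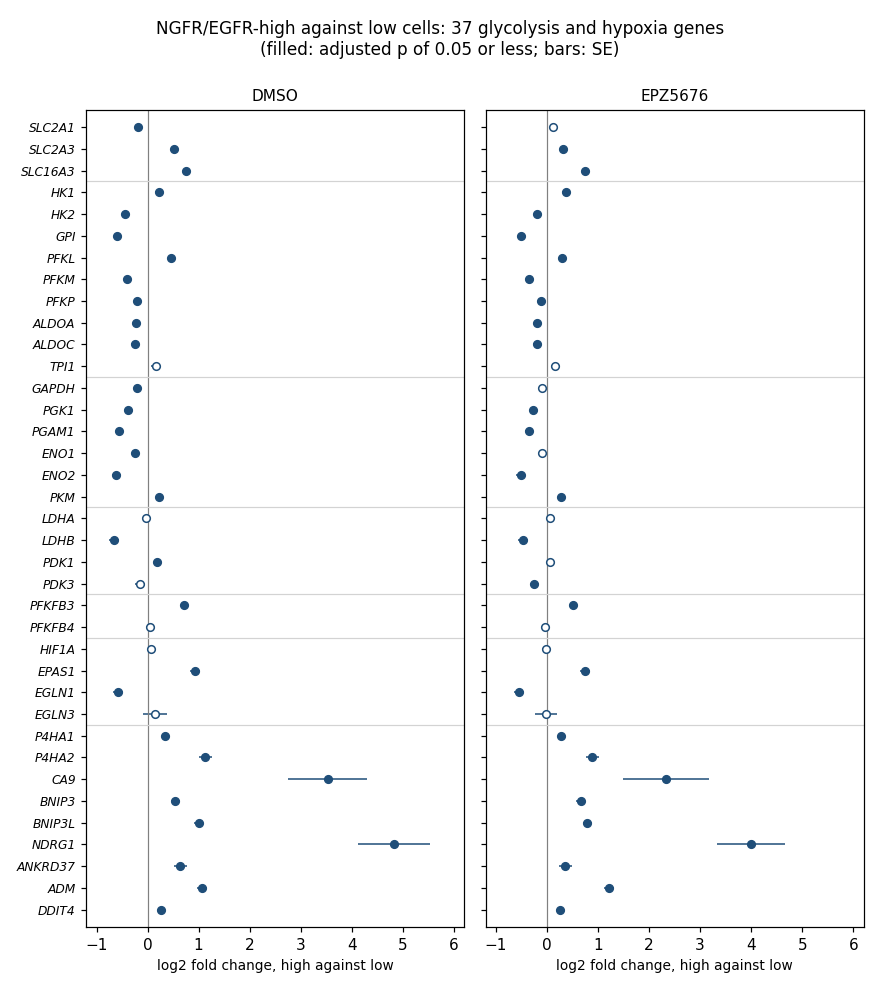
Difference between high and low cells, as a log2 fold change, in DMSO and in EPZ5676 libraries for the 37 genes, grouped by role, with bars of 1 SE and filled points for an adjusted p of 0.05 or less. NDRG1 (4.83 and 3.99) and CA9 (3.53 and 2.33) lie farthest to the right, while GPI, PGAM1, ENO2, LDHB and EGLN1 lie to the left of 0 under both treatments.

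The transporters divided by gene. SLC16A3 encodes MCT4, a carrier that exports lactate. It stood at 879, 789.8 and 851 CPM in DMSO high and 486, 499 and 499 CPM in DMSO low libraries. With EPZ5676 the high libraries had 768, 701 and 765 CPM and the low libraries 430.0, 416 and 483 CPM. Bulk libraries had 604, 488 and 518 CPM in DMSO and 451, 423 and 449.9 CPM in EPZ5676 cells. All high libraries lay above all low libraries in both treatments, and the log2 fold change was 0.76 ± 0.07 (adjusted p = 1.42e-08) under DMSO and 0.75 ± 0.07 (adjusted p = 5.01e-08) under EPZ5676. SLC2A3, which encodes the glucose transporter GLUT3, was also higher, by 0.52 ± 0.06 and 0.31 ± 0.06.

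SLC2A1 encodes GLUT1, the widely expressed glucose transporter. Its DMSO libraries had 144, 129.8 and 130.5 CPM in high, 161, 146 and 150.4 CPM in low and 134, 136 and 145 CPM in bulk cells. Its EPZ5676 libraries had 133, 131 and 148 CPM in high, 125, 115 and 138 CPM in low and 121, 111 and 127 CPM in bulk cells. High cells were thus slightly below low cells under DMSO, at -0.18 ± 0.07 (adjusted p = 0.037), and did not pass under EPZ5676, at 0.12 ± 0.07 (adjusted p = 0.16). The DMSO call was lost when the 6 libraries with many reads on no gene were left out, and also without DMSO high replicate 2 or 3 or DMSO low replicate 1 or 3. Without EPZ5676 low replicate 3 SLC2A1 passed under EPZ5676, higher in high cells, at 0.19 (adjusted p = 0.0472).

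Among the enzymes that take glucose to triose phosphate, 2 of 9 were higher and 6 lower in high cells under each treatment. Hexokinases trap glucose in the cell by phosphorylating it. HK2 stood at 374, 372 and 375 CPM in DMSO high, 523, 498 and 509 CPM in DMSO low and 414, 469 and 489.7 CPM in DMSO bulk libraries. With EPZ5676 it stood at 360.1, 348 and 375 CPM in high, 416, 396 and 433 CPM in low and 413, 397 and 407 CPM in bulk libraries. High libraries lay below low libraries within each treatment without overlap, at -0.45 ± 0.06 (adjusted p = 7.4e-07) under DMSO and -0.20 ± 0.06 (adjusted p = 0.00485) under EPZ5676. HK1 went the other way, at 0.22 ± 0.07 (adjusted p = 0.00796) and 0.37 ± 0.07 (adjusted p = 7.7e-05). The HK1 call under DMSO was lost without DMSO high replicate 2 and with library size as the only scaling, and under either treatment without the 6 libraries with many reads on no gene.

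Glucose-6-phosphate isomerase, GPI, was among the most lowered. It had 493, 519 and 509 CPM in DMSO high against 759.5, 784 and 755 CPM in DMSO low libraries, and 546, 516 and 527 CPM against 769.5, 745 and 753 CPM with EPZ5676. In bulk cells it had 614, 705 and 723 CPM in DMSO and 694, 715 and 718 CPM in EPZ5676 libraries. The high and low ranges were far apart in both treatments, at -0.60 ± 0.05 (adjusted p = 1.1e-08) and -0.51 ± 0.05 (adjusted p = 1.67e-07). The 3 phosphofructokinase genes, whose products form the enzyme of the committed step, differed from each other. PFKL, the liver-type subunit, was higher in high cells by 0.46 ± 0.05 under DMSO and 0.29 ± 0.05 under EPZ5676. PFKM, the muscle-type subunit, was lower, with 134, 154 and 129.8 CPM in DMSO high against 172, 185 and 195 CPM in DMSO low and 140.5, 146 and 137 CPM against 181, 181 and 183 CPM with EPZ5676. Its bulk libraries had 175, 184 and 191 CPM in DMSO and 188, 184 and 173 CPM in EPZ5676 cells. Its high and low libraries did not overlap, and its fold changes were -0.40 ± 0.06 (adjusted p = 1.35e-05) and -0.36 ± 0.06 (adjusted p = 6.34e-05). PFKP, the platelet-type subunit, was lower by smaller amounts, at -0.20 ± 0.05 and -0.12 ± 0.05. The aldolases, which cut the sugar into triose phosphates, were both lower: ALDOA at -0.22 ± 0.04 and -0.19 ± 0.04, ALDOC at -0.25 ± 0.07 and -0.20 ± 0.07. TPI1, which interconverts the triose phosphates, did not pass, at 0.16 ± 0.09 and 0.16 ± 0.09, although leaving out DMSO high replicate 3 or DMSO low replicate 3 brought it past the threshold under DMSO, and the fits without a filter, with only the groups compared and without DMSO high replicate 2 did so under EPZ5676. Its 4 pseudogene rows held reads equal to 25.9% to 32.5% of its own counts, so its level is uncertain.

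From triose phosphate to pyruvate, 5 of 6 enzymes were lower and 1 higher under DMSO, and 3 were lower and 1 higher under EPZ5676. ENO2, the neuronal form of enolase, stood at 383, 406 and 388 CPM in DMSO high and 589, 595 and 618 CPM in DMSO low libraries. The EPZ5676 libraries had 367, 368 and 372 CPM in high and 499, 522 and 564 CPM in low cells. The bulk libraries had 411, 590.4 and 584 CPM in DMSO and 517, 516 and 555 CPM in EPZ5676 cells. Both treatments showed high libraries below low libraries without overlap, at -0.61 ± 0.09 (adjusted p = 1.82e-05) and -0.52 ± 0.09 (adjusted p = 0.000148). The broadly expressed ENO1 was lower under DMSO, at -0.25 ± 0.04 (adjusted p = 2.88e-05), and did not pass under EPZ5676, at -0.09 ± 0.04 (adjusted p = 0.0715), but passed there with library size as the only scaling, with only the groups compared and without DMSO bulk replicate 1. Phosphoglycerate mutase, PGAM1, had 74.3, 77.9 and 74.1 CPM in DMSO high and 106, 109.6 and 116 CPM in DMSO low libraries. With EPZ5676 the values were 81.4, 74.3 and 83.2 CPM and 109.8, 92.5 and 106 CPM. In bulk they were 87.3, 104 and 104 CPM in DMSO and 100.1, 99.9 and 93.5 CPM in EPZ5676 libraries. The high and low ranges were again separate, and the fold changes were -0.55 ± 0.07 (adjusted p = 1.69e-06) and -0.36 ± 0.07 (adjusted p = 0.000279).

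PGK1, the first ATP-yielding step of glycolysis, was lower in high cells, at -0.38 ± 0.05 under DMSO and -0.28 ± 0.05 under EPZ5676. GAPDH was lower, at -0.21 ± 0.05 (adjusted p = 0.00193) under DMSO and did not pass under EPZ5676, at -0.10 ± 0.05 (adjusted p = 0.14), but passed there with library size as the only scaling and with only the groups compared. Rows of 64 GAPDH pseudogenes held reads equal to 17.7% to 21.9% of the GAPDH counts, so part of its signal may be split and its level is uncertain. PKM, pyruvate kinase, was the member of this stretch that was higher in high cells, at 0.23 ± 0.05 and 0.28 ± 0.05. Per kilobase of transcript, ENO1, PKM, GAPDH and ALDOA were the most abundant of the 37 in DMSO low cells, at 2067, 1490, 1432 and 1314 CPM per kb.

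Of the genes that act on pyruvate, LDHB changed most. It encodes the lactate dehydrogenase subunit associated with the conversion of lactate to pyruvate, and it stood at 898, 1191 and 888 CPM in DMSO high against 1416, 1526 and 1748 CPM in DMSO low libraries. With EPZ5676 the values were 953, 919.5 and 945 CPM and 1303, 1296 and 1316 CPM. LDHB stood in bulk libraries at 1227, 1478 and 1483 CPM in DMSO and 1332, 1349 and 1297 CPM in EPZ5676 cells. High libraries lay below low libraries without overlap, DMSO high replicate 2 being the closest, and the fold changes were -0.66 ± 0.10 (adjusted p = 2.99e-05) and -0.47 ± 0.10 (adjusted p = 0.000808). LDHA, the subunit associated with lactate production, had 1392, 1352 and 1320 CPM in DMSO high, 1380, 1428 and 1372 CPM in DMSO low and 1270, 1317 and 1322 CPM in DMSO bulk libraries. It had 1347, 1365 and 1428 CPM in EPZ5676 high, 1295, 1283 and 1390 CPM in EPZ5676 low and 1236, 1257 and 1269 CPM in EPZ5676 bulk libraries. High and low libraries overlapped in both treatments, and LDHA passed in neither, at -0.04 ± 0.04 (adjusted p = 0.459) and 0.06 ± 0.04 (adjusted p = 0.281). A missed threshold does not show that the levels are equal.

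PDK1 and PDK3 encode kinases that switch off pyruvate dehydrogenase and so hold pyruvate back from the mitochondria. PDK1 stood at 149.8, 137 and 139 CPM in DMSO high, 138, 113 and 123 CPM in DMSO low and 111, 112 and 108 CPM in DMSO bulk libraries. With EPZ5676 it stood at 106, 109.9 and 115 CPM in high, 106, 102 and 111 CPM in low and 102, 96.8 and 110.2 CPM in bulk libraries. It was higher in high cells under DMSO, at 0.19 ± 0.07 (adjusted p = 0.0195), and not called under EPZ5676, at 0.06 ± 0.07 (adjusted p = 0.52). The DMSO call was lost without DMSO high replicate 1, without DMSO low replicate 2 or 3, without the 6 libraries with many reads on no gene, and in the fits with library size as the only scaling, without a filter and with only the groups compared. PDK3 passed under EPZ5676 alone, at -0.25 ± 0.09 (adjusted p = 0.0226), against -0.15 ± 0.09 (adjusted p = 0.158) under DMSO, where it passed with library size as the only scaling; the difference between the treatments did not pass, at -0.10 ± 0.12 (adjusted p = 0.805).

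The enzymes PFKFB3 and PFKFB4 set the level of fructose-2,6-bisphosphate, the main activator of phosphofructokinase. PFKFB3 had 123, 133 and 126 CPM in DMSO high, 72.5, 74.6 and 84.2 CPM in DMSO low and 90.4, 76.1 and 72.2 CPM in DMSO bulk libraries. It had 116, 104 and 107 CPM in EPZ5676 high, 76.5, 74.7 and 77.7 CPM in EPZ5676 low and 78.8, 76.4 and 75.6 CPM in EPZ5676 bulk libraries. High libraries stood above low libraries without overlap, by 0.72 ± 0.07 (adjusted p = 4.87e-08) and 0.51 ± 0.07 (adjusted p = 6.42e-06). PFKFB4 stood at 96 ± 3.48 CPM in DMSO high, 92.5 ± 8.51 in DMSO low and 88.4 ± 6.23 in DMSO bulk cells (mean ± SD, n = 3). It stood at 96.2 ± 7.26 CPM in EPZ5676 high, 99 ± 5.34 in EPZ5676 low and 95.5 ± 6.68 in EPZ5676 bulk cells (mean ± SD, n = 3). These ranges overlapped, and PFKFB4 passed in none of the 6 comparisons.

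In the oxygen-sensing machinery, the 2 alpha subunits of HIF differed. HIF1A stood at 239.5, 212 and 222 CPM in DMSO high, 231, 218 and 193 CPM in DMSO low and 177, 200.4 and 209.7 CPM in DMSO bulk libraries. It stood at 211, 219 and 237 CPM in EPZ5676 high, 224, 221 and 231 CPM in EPZ5676 low and 214, 212 and 213 CPM in EPZ5676 bulk libraries. High and low cells overlapped, at 0.07 ± 0.07 (adjusted p = 0.413) and -0.02 ± 0.07 (adjusted p = 0.849). EPAS1, which encodes HIF-2 alpha, had 73.5, 77.8 and 77.8 CPM in DMSO high, 39.9, 40.8 and 39.4 CPM in DMSO low and 60, 41.3 and 41.8 CPM in DMSO bulk libraries. With EPZ5676 it had 78.4, 81.9 and 72.2 CPM in high, 50.5, 46.4 and 42.4 CPM in low and 49, 46.2 and 47.1 CPM in bulk libraries. The high libraries were separate from the low ones in both treatments, at 0.93 ± 0.10 (adjusted p = 3.12e-07) and 0.74 ± 0.10 (adjusted p = 7.67e-06), and DMSO bulk replicate 1 lay between them.

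EGLN1 and EGLN3 encode prolyl hydroxylases that tag HIF alpha. EGLN1 stood at 134, 126 and 132 CPM in DMSO high and 199, 181 and 205 CPM in DMSO low libraries. The EPZ5676 libraries had 112, 110.1 and 120.5 CPM in high and 162, 153 and 186 CPM in low cells. Bulk EGLN1 levels were 134, 173 and 185 CPM in DMSO and 167, 148 and 161 CPM in EPZ5676 libraries. High libraries were below low libraries throughout, at -0.58 ± 0.09 (adjusted p = 2.96e-05) and -0.55 ± 0.09 (adjusted p = 7.61e-05). EGLN3 was scarce, at 2.92 ± 0.474 CPM in DMSO high and 2.64 ± 0.592 CPM in DMSO low cells (mean ± SD, n = 3), and passed in none of the 6 comparisons.

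NDRG1 (ENSG00000104419), a stress-responsive gene widely used as a hypoxia marker, showed the largest difference of the 37. It stood at 614, 612 and 546 CPM in DMSO high and 22.1, 20.5 and 19.7 CPM in DMSO low libraries, and at 260.1, 31 and 37.1 CPM in DMSO bulk libraries. With EPZ5676 it stood at 392, 362 and 447 CPM in high, 19.5, 25.7 and 30 CPM in low and 43.4, 44.9 and 55.8 CPM in bulk libraries. The high libraries were far above the low ones in both treatments, 28.4-fold under DMSO and 15.9-fold under EPZ5676, and DMSO bulk replicate 1 stood far above its own group. On the log2 scale the differences were 4.83 ± 0.70 (adjusted p = 5.83e-05) and 3.99 ± 0.67 (adjusted p = 0.000279). Without the 6 libraries with many reads on no gene the EPZ5676 value was also 3.99 but the call was lost, with 1 EPZ5676 high library left. The DMSO value was then 4.86 with adjusted p = 0.00779.

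CA9 (ENSG00000107159), a carbonic anhydrase at the cell surface and a classical HIF target, was nearly absent. Raw counts were 9, 14 and 18 in DMSO high libraries and 3, 0 and 1 in DMSO low libraries. With EPZ5676 they were 5, 3 and 13 in high and 2, 1 and 1 in low libraries. In bulk libraries CA9 was at 0.183, 0.0527 and 0.0938 CPM in DMSO and 0, 0.112 and 0 CPM in EPZ5676 cells. The high counts were above the low ones in both treatments, at 3.53 ± 0.77 (adjusted p = 0.000475) and 2.33 ± 0.85 (adjusted p = 0.0274). Summed over libraries and corrected for depth, 41 counts against 4 gave a ratio of 11.8 (95% interval 4.28 to 45.4) under DMSO, and 21 against 4 gave 5.36 (1.81 to 21.5) under EPZ5676. Those exact intervals cover counting error only, and the EPZ5676 call was lost in the fit without EPZ5676 high replicate 3, in those without EPZ5676 low replicate 2 or 3, and in the fit of only the groups compared.

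ADM and the collagen prolyl hydroxylase genes followed the same order. ADM (ENSG00000148926), which encodes the vasodilator peptide adrenomedullin, had 231, 247 and 233 CPM in DMSO high against 110.1, 114 and 114 CPM in DMSO low libraries. With EPZ5676 it had 219, 214 and 195 CPM in high and 88.8, 85 and 95.2 CPM in low libraries. ADM was at 148, 100.5 and 107 CPM in DMSO and 102, 88.4 and 95.7 CPM in EPZ5676 bulk libraries. Its high and low ranges did not overlap, and its fold changes were 1.07 ± 0.10 (adjusted p = 1.44e-07) and 1.22 ± 0.10 (adjusted p = 8.65e-08). P4HA2, an alpha subunit of the enzyme that hydroxylates collagen prolines, had 86.2, 112 and 87.1 CPM in DMSO high against 41.9, 44 and 45 CPM in DMSO low libraries. With EPZ5676 it had 80.5, 83.4 and 78 CPM in high and 39.7, 43.5 and 47.4 CPM in low libraries. P4HA2 was at 63.3, 41.7 and 45.3 CPM in DMSO and 49.7, 48.5 and 49.1 CPM in EPZ5676 bulk libraries. DMSO high replicate 2 was the highest, no library of one sort reached the other, and the fold changes were 1.13 ± 0.13 (adjusted p = 1.04e-06) and 0.89 ± 0.13 (adjusted p = 2.12e-05). The related subunit P4HA1 was higher by 0.35 ± 0.05 and 0.28 ± 0.05.

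The mitophagy receptor BNIP3L had 202, 201 and 189.5 CPM in DMSO high against 104, 97.8 and 94.5 CPM in DMSO low libraries, and 158, 150.5 and 166 CPM against 87.9, 89.1 and 96.6 CPM with EPZ5676. BNIP3L was at 125, 87.7 and 93.3 CPM in DMSO and 91.9, 87.7 and 94.1 CPM in EPZ5676 bulk libraries. High and low cells were again separate, at 1.00 ± 0.09 (adjusted p = 2.15e-08) and 0.79 ± 0.09 (adjusted p = 7.67e-07). Its relative BNIP3 was higher by 0.54 ± 0.09 and 0.66 ± 0.09, but 42 pseudogene rows held reads equal to 20.3% to 28.2% of its counts, so its level is uncertain. ANKRD37, a small ankyrin-repeat gene known as a HIF target, was higher by 0.64 ± 0.13 and 0.36 ± 0.13. DDIT4, an inhibitor of the growth kinase mTORC1, was higher by 0.27 ± 0.06 and 0.25 ± 0.06.

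The plot of levels by library shows these separations for 16 genes, and for NDRG1, EPAS1, P4HA2 and ADM it shows DMSO bulk replicate 1 between the high and the low libraries.

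**Figure D2:**
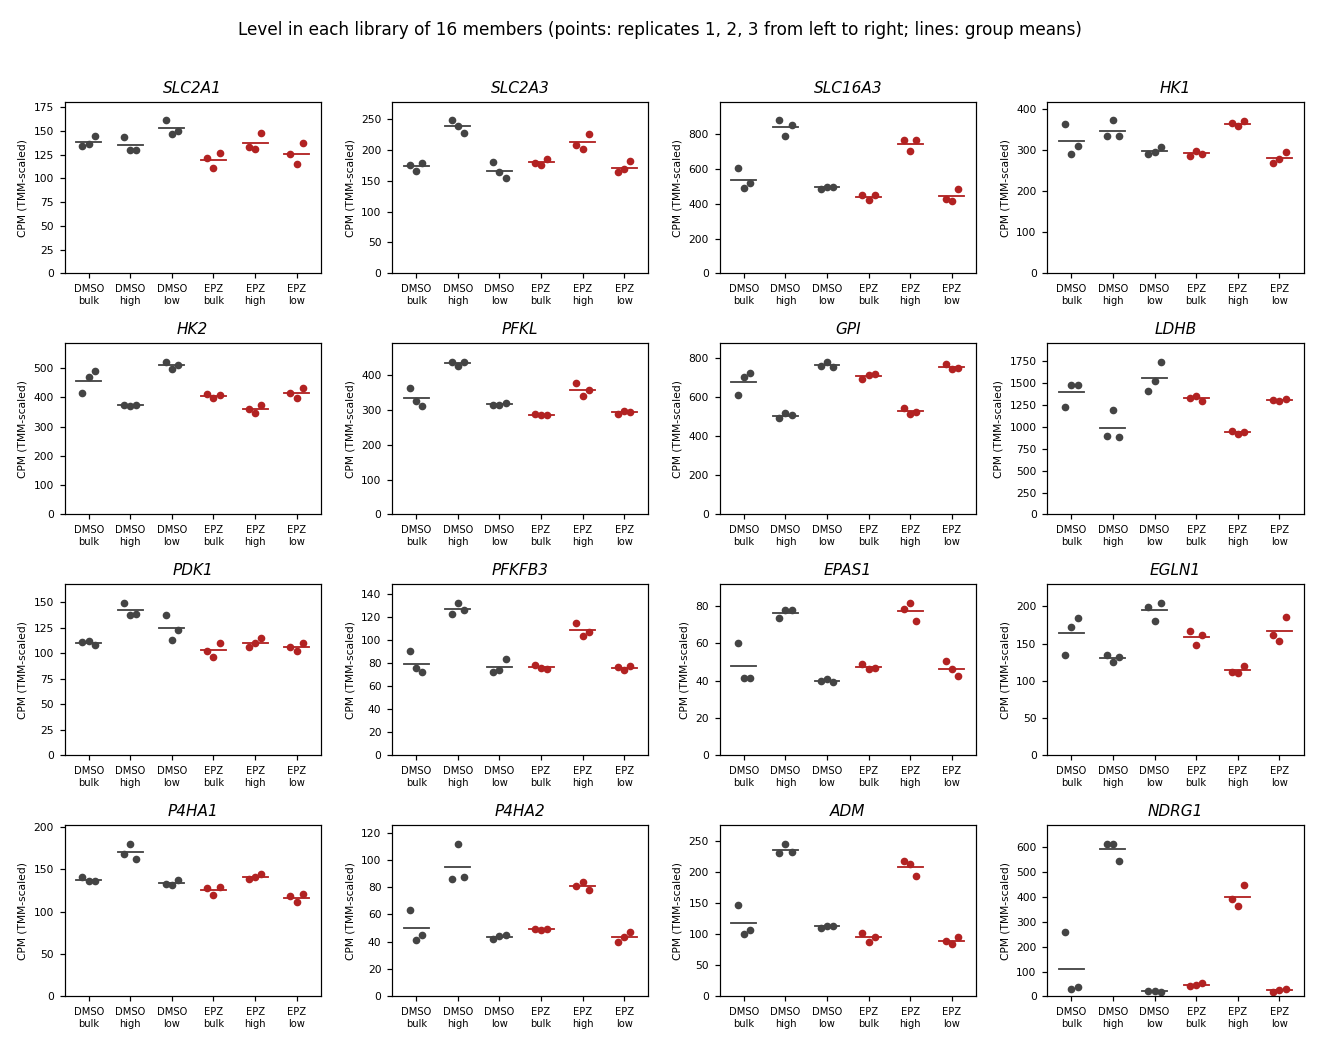
Level in each library of 16 of the genes, in CPM on axes that start at 0, with DMSO groups in grey, EPZ5676 groups in red and lines for group means. For NDRG1 the DMSO high libraries lie at 546 to 614 CPM and DMSO bulk replicate 1 at 260 CPM, while for GPI, LDHB and EGLN1 the high libraries lie below the low ones.

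HIF binds DNA at a short core whose first base is A or G, so promoter windows were searched for ACGTG and GCGTG on both strands. The windows run from 250 bases before to 50 bases after a start site in RefSeq (GRCh38.p14); 34 of the 37 genes matched the table, with 61 windows, and NDRG1, BNIP3L and SLC2A3 did not. ACGTG was in 41% of the 61 windows and in 21.4% of 35116 windows of all genes. GCGTG was in 41% and 36.5%. The CACGTG box, which contains ACGTG and is bound by other factors, was in 13.1% and 7.26%. For the further hypoxia response genes ACGTG was in 5 of 7 windows, and for the 15 enzymes in 14 of 34. Windows of 1 gene can overlap, and a match is only a run of letters. The 4 genes with a window whose RNA differed most between high and low DMSO cells are printed 5′ to 3′ on the gene's strand in lower case, with the matching letters in capitals. CA9 (chr9:35673678-35673977, plus strand) has ACGTG on the opposite strand, so its capitals read CACGT, with the first base at position -18 from the start site. ADM (chr11:10304823-10305122, plus strand) and EPAS1 (chr2:46297157-46297456, plus strand) have GCGTG at positions -101 and -117. P4HA2 (chr5:132227042-132227341, minus strand) has no match in this window.
CA9: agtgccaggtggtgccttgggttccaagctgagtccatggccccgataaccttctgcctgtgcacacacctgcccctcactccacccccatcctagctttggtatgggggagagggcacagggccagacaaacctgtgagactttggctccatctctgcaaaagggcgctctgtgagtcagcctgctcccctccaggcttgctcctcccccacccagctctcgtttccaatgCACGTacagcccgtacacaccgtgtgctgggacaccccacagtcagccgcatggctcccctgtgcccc
P4HA2: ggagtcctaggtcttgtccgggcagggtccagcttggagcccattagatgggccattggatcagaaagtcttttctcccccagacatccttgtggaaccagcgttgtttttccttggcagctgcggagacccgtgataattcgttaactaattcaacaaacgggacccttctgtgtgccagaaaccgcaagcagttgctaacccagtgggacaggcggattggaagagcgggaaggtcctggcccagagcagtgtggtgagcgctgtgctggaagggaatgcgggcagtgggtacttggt
ADM: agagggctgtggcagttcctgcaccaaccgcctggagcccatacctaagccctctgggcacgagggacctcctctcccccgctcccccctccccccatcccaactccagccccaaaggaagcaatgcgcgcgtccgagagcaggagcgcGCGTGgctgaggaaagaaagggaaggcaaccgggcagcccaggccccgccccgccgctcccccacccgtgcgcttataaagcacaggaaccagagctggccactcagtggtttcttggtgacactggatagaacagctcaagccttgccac
EPAS1: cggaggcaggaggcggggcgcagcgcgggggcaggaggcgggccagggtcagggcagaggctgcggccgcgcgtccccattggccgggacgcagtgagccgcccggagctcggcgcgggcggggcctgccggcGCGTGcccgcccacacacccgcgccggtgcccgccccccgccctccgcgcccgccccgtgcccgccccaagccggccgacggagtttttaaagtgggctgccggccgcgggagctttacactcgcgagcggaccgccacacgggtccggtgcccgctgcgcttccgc

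Because isoenzyme genes differed in opposite directions, their shares of the family were computed on the per-length scale, as CPM per kilobase of transcript. These shares restate the levels above and were not tested. HK1 made up 59.7% ± 1.6 of HK1 and HK2 in DMSO high and 48.3% ± 1.1 in DMSO low cells (mean ± SD, n = 3), and 61.7% ± 0.51 and 52% ± 1.1 with EPZ5676. PFKL made up 54.5% ± 1.4 of the phosphofructokinase genes in DMSO high and 41.9% ± 0.67 in DMSO low cells, and 50.6% ± 1.2 and 42% ± 0.66 with EPZ5676. SLC2A3 made up 62.3% ± 0.79 of SLC2A1 and SLC2A3 in DMSO high and 50.4% ± 1.2 in DMSO low cells, and 59.1% ± 0.34 and 56% ± 1.5 with EPZ5676. The high libraries did not overlap the low libraries for any of these 3 families in either treatment. PFKFB3 made up 51.4% ± 1.9 of PFKFB3 and PFKFB4 in DMSO high and 40.1% ± 2.6 in DMSO low cells. LDHA made up 46.7% ± 4.2 of the lactate dehydrogenase genes in DMSO high and 36.3% ± 2.6 in DMSO low cells, where LDHB was lower and LDHA itself did not pass. ENO2 made up 7.37% ± 0.24 of the enolases in DMSO high and 9.32% ± 0.32 in DMSO low cells.

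**Figure D3:**
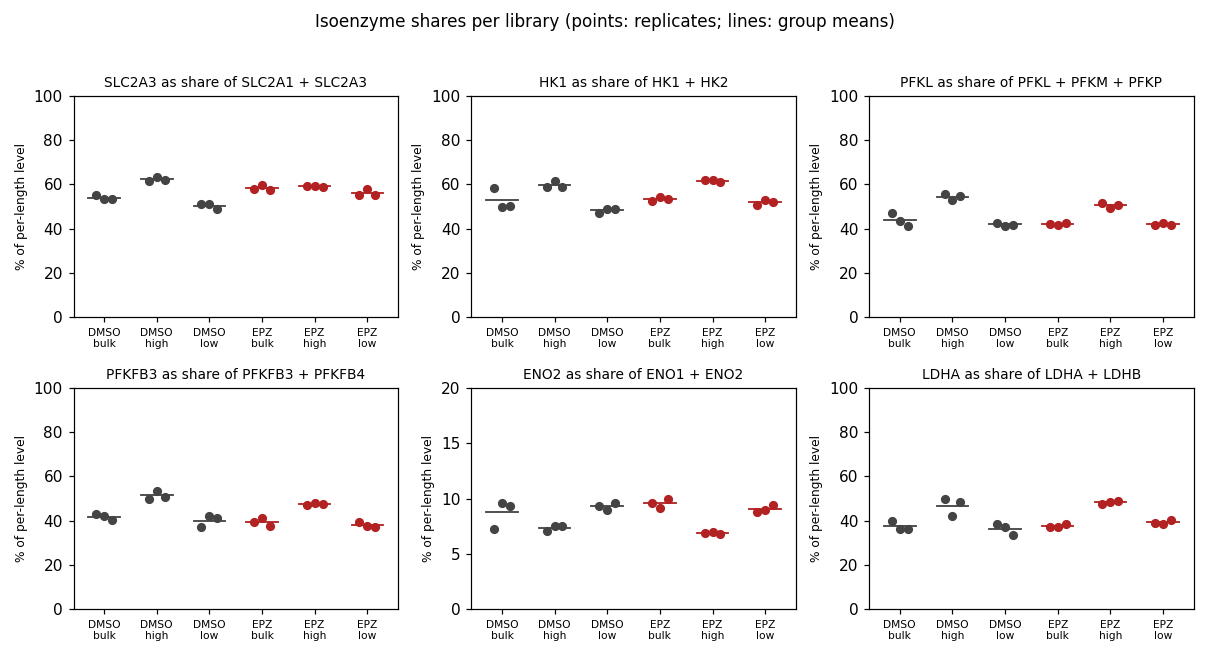
Share of 1 gene in its isoenzyme family in each library, in % of the summed CPM per kilobase, with DMSO groups in grey, EPZ5676 groups in red and lines for group means; the ENO2 panel ends at 20% and the others at 100%. SLC2A3, HK1, PFKL, PFKFB3 and LDHA lie higher in high than in low libraries and ENO2 lies lower.

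Other genes of the pathways, from 2 lists of related genes, were compared in the same way. Of 35 other glycolysis and pyruvate genes, 27 were tested, and 6 were higher and 17 lower in high cells under DMSO (median -0.38), against 4 and 15 under EPZ5676 (median -0.19). That is 85.2% and 70.4% called. Fold changes of the 27 ran from -3.76 to 2.58 under DMSO and from -3.24 to 1.27 under EPZ5676. Of all tested genes, 29.6% were higher and 26.7% lower under DMSO, and 25.8% and 23.1% under EPZ5676. Lower were the lactate carrier SLC16A1 (MCT1), at -1.24 ± 0.10 under DMSO and -1.04 ± 0.09 under EPZ5676, and PFKFB2, at -0.96 ± 0.10 and -0.86 ± 0.09. Transketolase, TKT, of the pentose phosphate pathway, was lower, at -0.86 ± 0.07 and -0.66 ± 0.07, as was phosphoglucomutase PGM1, at -0.59 ± 0.06 and -0.55 ± 0.06. Higher were the sugar transporter SLC2A10 (1.72 ± 0.19 and 1.27 ± 0.19), the pyruvate carrier subunit MPC2 (0.71 ± 0.12 and 0.58 ± 0.12), BPGM (0.59 ± 0.10 and 0.73 ± 0.10) and PDK2 (0.34 ± 0.13 and 0.51 ± 0.13). The 2 lactate carriers thus differed in opposite directions: SLC16A1 stood at 129.6, 144 and 128 CPM in DMSO high and 308, 313 and 326 CPM in DMSO low libraries, while SLC16A3 was higher in high cells.

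Of 44 other hypoxia response genes, 40 were tested, and 19 were higher and 10 lower in high cells under DMSO (median 0.21), against 18 and 8 under EPZ5676 (median 0.16). That is 72.5% and 65% called, where 56.3% and 48.9% of all tested genes were. Of all tested genes, 29.6% were higher and 26.7% lower under DMSO, and 25.8% and 23.1% under EPZ5676. Genes of this list were thus found on both sides. Fold changes of the 40 ran from -1.51 to 8.33 under DMSO and from -1.34 to 6.47 under EPZ5676. The genes named next have the smallest p, not always the largest change. Higher were the histone demethylase KDM4C (1.05 ± 0.10 under DMSO and 0.82 ± 0.10 under EPZ5676), the transcriptional co-regulator CITED2 (0.95 ± 0.09 and 0.90 ± 0.09), the Notch effector RBPJ (1.52 ± 0.13 and 1.34 ± 0.13), the glycogen branching enzyme GBE1 (0.53 ± 0.06 under DMSO) and the collagen lysyl hydroxylase PLOD2 (1.28 ± 0.14 under EPZ5676). Lower were the HIF partner ARNT2 (-1.09 ± 0.07 and -0.67 ± 0.07), the MYC antagonist MXI1 (-1.43 ± 0.11 and -1.14 ± 0.11), the creatine transporter SLC6A8 (-1.51 ± 0.11 and -1.34 ± 0.11) and the demethylase KDM5B (-0.90 ± 0.09 and -1.06 ± 0.09).

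EPZ5676 was then compared with DMSO within each population. In bulk cells 0 of the 37 genes passed in edgeR's quasi-likelihood test, where 0.728% of all tested genes did (0.497% higher and 0.232% lower). At an unadjusted p under 0.05, 1 was higher and 11 lower, where 12.3% of all tested genes were under it. DESeq2 called 3 (DDIT4, PFKL and SLC16A3), each lower, where it called 1.6% of all genes. The median log2 fold change was -0.06, against -0.01 over all tested genes. The EPZ5676 libraries lay below the DMSO libraries without overlap for 11 genes and above for 3, or 29.7% and 8.11%, where 7.64% and 8.21% of all tested genes did. The smallest adjusted p was that of PFKL, at -0.22 ± 0.05 (adjusted p = 0.0585), followed by DDIT4 at -0.26 ± 0.06 (adjusted p = 0.0631) and SLC16A3 at -0.28 ± 0.07 (adjusted p = 0.0635). Without DMSO bulk replicate 1, 4 genes passed, each lower: HK2 at -0.24, ENO1 at -0.17, PFKP at -0.18 and DDIT4 at -0.26, where 550 of 18784 genes passed. NDRG1, at -1.18 ± 0.61 (adjusted p = 0.467), had its largest DMSO bulk value in that library. The summed melanocyte markers were at 4810 to 10300 CPM in DMSO bulk and 12400 to 12700 CPM in EPZ5676 bulk libraries, and their part in the results was not tested.

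In high cells EPZ5676 lowered 3 of the 37 genes and raised 0, or 8.11%, where 3% of all tested genes passed (1.04% lower). PDK1 (ENSG00000152256) stood at 149.8, 137 and 139 CPM in DMSO high and 106, 109.9 and 115 CPM in EPZ5676 high libraries. PFKL (ENSG00000141959) stood at 439.9, 427 and 439 CPM and 379, 341 and 358 CPM. P4HA1 (ENSG00000122884) stood at 168, 180.3 and 163 CPM and 138, 141 and 145 CPM. In each the EPZ5676 high libraries lay below the DMSO high libraries without overlap. PFKL was at 315, 316 and 320.3 CPM in DMSO low, 289, 297 and 294 CPM in EPZ5676 low, 364, 326 and 313 CPM in DMSO bulk and 290.0, 286 and 286 CPM in EPZ5676 bulk libraries. P4HA1 was at 132, 131 and 137 CPM in DMSO low, 118, 111 and 120.4 CPM in EPZ5676 low, 141, 136 and 136 CPM in DMSO bulk and 128, 119.8 and 129 CPM in EPZ5676 bulk libraries. The fold changes were -0.36 ± 0.07 (adjusted p = 0.00368) for PDK1, -0.28 ± 0.05 (adjusted p = 0.00556) for PFKL and -0.27 ± 0.05 (adjusted p = 0.00616) for P4HA1. All 3 were also higher in high than in low DMSO cells, a comparison that shares the DMSO high libraries.

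Over all 37 genes the median change in high cells was -0.09, against -0.00 over all tested genes. EPZ5676 libraries lay below DMSO libraries without overlap for 15 genes and above for 1, or 40.5% and 2.7%, where 12.1% and 12.7% of all tested genes did. All 9 of the further hypoxia response genes had a fold change below 0, from -1.12 (CA9) to -0.11 (ANKRD37), with a median of -0.24. Only P4HA1 of them passed. In bulk cells all 9 were below 0 too (median -0.26), with 0 called. In low cells 5 were below 0 and 4 above (median -0.11), also with 0 called. The medians over all tested genes there were -0.01 and 0.00. In high cells NDRG1 had -0.56 ± 0.58 (adjusted p = 0.71) and BNIP3L -0.32 ± 0.09 (adjusted p = 0.0552). BNIP3L passed, lower, with RLE factors, without a filter, with DESeq2, with limma-voom, with the replicate block, with only the groups compared, and without any 1 of the 3 DMSO bulk libraries. The summed melanocyte markers were at 1120 to 1330 CPM in DMSO high and 1710 to 1880 CPM in EPZ5676 high libraries, and the summed fibroblast markers at 1080 to 1410 and 603 to 743 CPM. Of the 7 fibroblast markers tested, 4 had a fold change below 0 and 3 above (median -0.16), and the member that passed, LUM, was higher, at 0.73. The part of these shifts in the results was not tested. Leukocyte markers summed to at most 2.46 CPM in any library.

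These counts depended on single libraries. DMSO bulk replicate 1 takes no part in the high-cell comparison, but its spread enters the estimate shared by all groups. Without it 13 of the 37 genes passed in high cells, where 2018 of 18784 genes did. Lower were PDK1, PFKL, P4HA1, BNIP3L (-0.32), NDRG1 (-0.56), P4HA2 (-0.24), PFKFB3 (-0.22), DDIT4 (-0.21), EGLN1 (-0.19), ADM (-0.18), SLC16A3 (-0.17) and SLC2A3 (-0.16), and ALDOA (0.12) was higher. Without the 6 libraries with many reads on no gene, the 3 calls were lost, as were most calls over all genes. PDK1 was then at -0.31, PFKL at -0.27 and P4HA1 at -0.26, with 1 EPZ5676 high library left, assumed to vary like the other groups. Without EPZ5676 high replicate 2, PFKL was at -0.24 and did not pass (adjusted p = 0.0567).

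In low cells EPZ5676 lowered 1 of the 37 genes, HK2 (ENSG00000159399), and raised 0, or 2.7%, where 1.04% of all tested genes passed (0.326% lower). HK2 stood at 523, 498 and 509 CPM in DMSO low and 416, 396 and 433 CPM in EPZ5676 low libraries. The EPZ5676 libraries lay below the DMSO libraries without overlap, at -0.30 ± 0.06 (adjusted p = 0.00918). HK2 was also higher in low than in high DMSO cells, a comparison that shares the DMSO low libraries. Next by adjusted p came SLC2A1, at -0.28 ± 0.07 (adjusted p = 0.0622), PFKP, at -0.18 ± 0.05 (adjusted p = 0.0683), and P4HA1, at -0.20 ± 0.05 (adjusted p = 0.0803). None of these passed in edgeR's quasi-likelihood test over all 18 libraries. DESeq2 called all 3, each lower, where it called 1.72% of all genes, and so did the fit of only the groups compared, where 6.27% passed. SLC2A1 also passed with limma-voom, with the replicate block, without a filter and without EPZ5676 low replicate 3. EPZ5676 libraries lay below DMSO libraries without overlap for 13 genes and above for 2, or 35.1% and 5.41%, where 11.5% and 11.6% of all tested genes did. The median was -0.09, against 0.00 over all tested genes. The summed melanocyte markers were at 11100 to 11600 CPM in DMSO low and 13900 to 14100 CPM in EPZ5676 low libraries. Endothelial markers summed to 2.41 to 3.06 and 5.05 to 6.19 CPM, and 1 of the 2 tested, VWF, was higher with EPZ5676. The part of these markers was not tested.

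Without DMSO bulk replicate 1, 11 of the 37 genes passed in low cells, where 968 of 18784 genes did. Lower were HK2, ADM (-0.33), SLC2A1 (-0.28), BNIP3 (-0.25), PDK1 (-0.23), EGLN1 (-0.22), P4HA1 (-0.20), PFKP (-0.18), ENO2 (-0.18) and ENO1 (-0.14), and EPAS1 (0.21) was higher. The HK2 call was lost without EPZ5676 low replicate 2 (-0.26, adjusted p = 0.0901). It was also lost without the 6 libraries with many reads on no gene, as were most calls over all genes, and HK2 was then at -0.30.

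**Figure D4:**
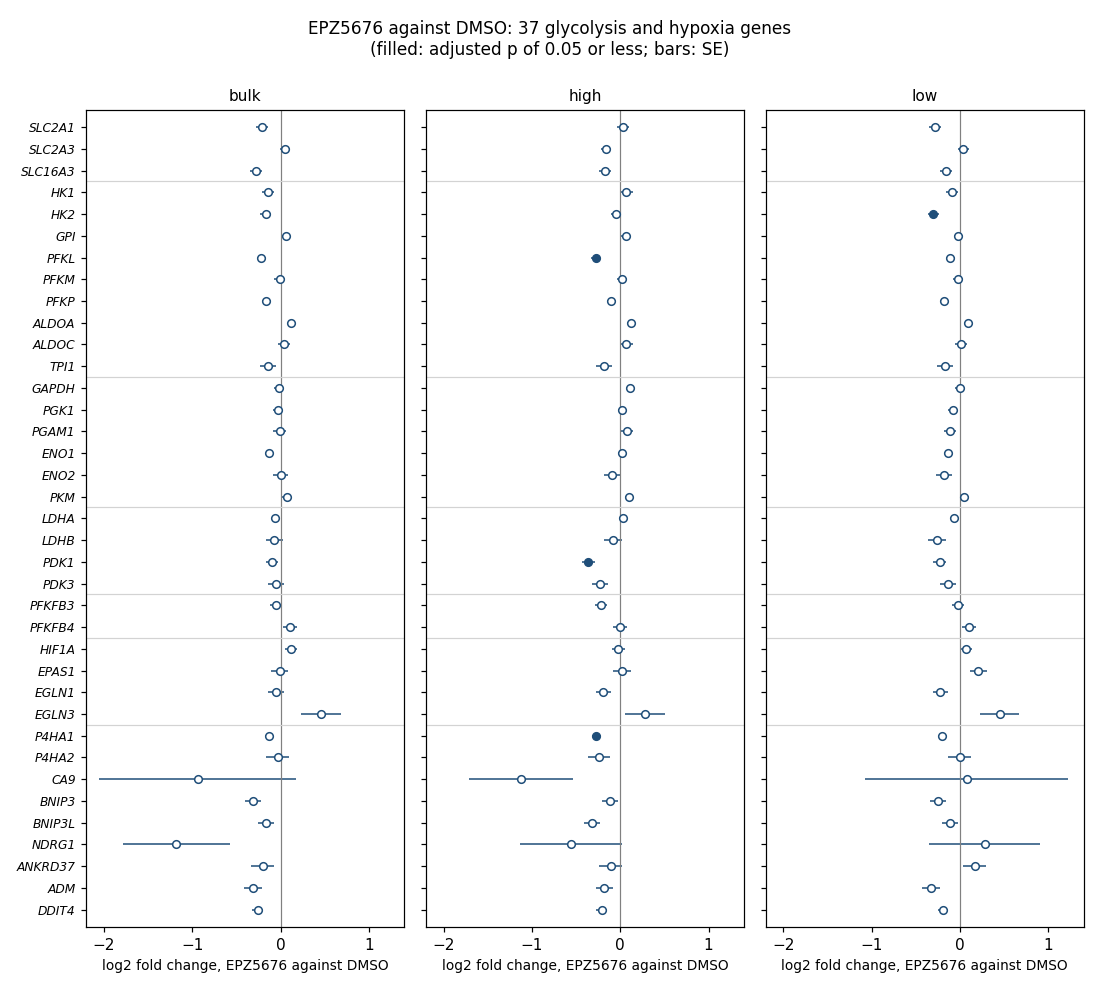
Log2 fold change of EPZ5676 against DMSO in bulk, high and low cells for the 37 genes, grouped by role, on 1 shared axis, with bars of 1 SE and filled points for an adjusted p of 0.05 or less. The filled points are PFKL, PDK1 and P4HA1 in high cells and HK2 in low cells, and the bars of CA9 and NDRG1 are the widest.

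Whether EPZ5676 acted differently in high and in low cells was tested by the interaction. In edgeR's quasi-likelihood test 0 of the 37 genes passed, where 0.32% of all tested genes did (0.204% above 0 and 0.116% below), and at an unadjusted p under 0.05 there were 3 above 0 and 2 below, where 11.1% of all tested genes were under it. DESeq2 and limma-voom also called 0, and with only the groups compared HK2 passed, where 4.84% of all genes did. HK2, lowered in low cells and at -0.05 ± 0.06 in high cells, had an interaction of 0.25 ± 0.08 (adjusted p = 0.215), and SLC2A1 had 0.30 ± 0.10 (adjusted p = 0.232). Without DMSO bulk replicate 1, 4 genes passed: HK2 (0.25, adjusted p = 0.00988), SLC2A1 (0.31, adjusted p = 0.041), ENO1 (0.16, adjusted p = 0.0243) and NDRG1 (-0.84, adjusted p = 0.0384), where 1072 of 18784 genes (5.71%) did. PDK1, PFKL and P4HA1 were called in high cells alone in edgeR's test over all 18 libraries. DESeq2 also called PFKL in bulk and P4HA1 in low cells. In edgeR the 3 genes had interactions of -0.13 ± 0.09 (adjusted p = 0.649), -0.16 ± 0.08 (adjusted p = 0.426) and -0.07 ± 0.08 (adjusted p = 0.769), so their changes were not shown to differ between high and low cells.

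In high cells 1.95% of all tested genes were higher with EPZ5676 and 1.04% lower. In the other lists EPZ5676 raised 5 and lowered 0 of 27 glycolysis and pyruvate genes in high cells. These included the pyruvate dehydrogenase phosphatase PDP1, which opposes the PDK kinases, at 0.49 ± 0.06 (adjusted p = 9.34e-05), phosphoglucomutase PGM2 at 0.36 ± 0.08 (adjusted p = 0.00964), TKT at 0.31 ± 0.07 (adjusted p = 0.0195) and the pyruvate dehydrogenase subunit DLAT at 0.24 ± 0.06 (adjusted p = 0.0298). PDP1 had 64, 61.3 and 63.7 CPM in DMSO high and 85.8, 97.1 and 82.7 CPM in EPZ5676 high libraries, without overlap, the libraries in which PDK1 fell. Of 40 other hypoxia response genes, ARNT2 rose in high cells, at 0.48 ± 0.07 (adjusted p = 0.00054), and GBE1, ERO1A and KDM5B fell, at -0.31 ± 0.06 (adjusted p = 0.00508), -0.31 ± 0.07 (adjusted p = 0.0227) and -0.33 ± 0.09 (adjusted p = 0.0418). In low cells AK4, an adenylate kinase, fell, at -0.33 ± 0.07 (adjusted p = 0.013). In bulk cells 1 of the 27 and 0 of the 40 passed, where 0.728% of all tested genes did. In low cells, where 1.04% did, 1 of the 27 passed. That gene was PKLR, the liver and red cell pyruvate kinase, higher by 1.28 ± 0.25 in bulk and 0.97 ± 0.23 in low cells, and the fifth gene raised in high cells was the hexokinase HKDC1, at 0.96 ± 0.22. Both stood under 5 CPM and are named after their values were seen.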

How the data were processed

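RNA of WM989 cells was poly(A)-selected and sequenced in 18 libraries, 3 in each of 6 groups (DMSO or 4 µM EPZ5676 for 7 days, in bulk, high and low cells). The authors deposited unnormalized counts for each Ensembl gene and library. The submitters' processing notes name STAR, HTSeq and hg19; versions, strand setting and annotation release are not given in the sources used here. Its 63677 genes were kept apart from 5 summary lines per library, of which reads on no gene made up 12.8% to 28.65% and ambiguous reads 6.07% to 7.71%. Reads on genes numbered 13383741 to 26311674 a library, and no 2 libraries held identical values (0 pairs). Symbols came from a name table (52181 genes) and GENCODE 29 (345 more), and 11151 genes stayed unnamed.

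In R 4.3.3 with edgeR 4.0.16, 18121 genes passed filterByExpr and were scaled by TMM. A robust quasi-likelihood model with the 6 group means was fitted over all 18 libraries, with p-values adjusted by Benjamini-Hochberg over all tested genes and a threshold of 0.05. The main edgeR fit was tried on simulated data for EPZ5676 against DMSO in low cells alone. Other comparisons and fits were not tried that way. Per-length levels used the principal transcript of GENCODE 29. Alternatives were other scaling (RLE factors or library size alone), no filter, DESeq2 1.42.0, limma-voom (limma 3.58.1), a replicate block, only the groups compared, leaving out each library, and leaving out 6 libraries with over 16% of reads on no gene.

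The members, the 2 lists of related genes and the markers were chosen with earlier results of these data known. All 37 members are named by role. In each comparison up to 6 called members per direction with the largest log2 fold change have their value in every library, as have HK2, SLC2A1, LDHA, PDK1, PFKFB3, HIF1A and EPAS1, while PFKFB4 has group means. From each related list up to 4 called genes per direction with the smallest p are named if the higher group averages 5 CPM or more. Counts were made on hg19, so no genome positions are given for them; promoter positions are those of RefSeq on GRCh38.p14.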

Additional observations from a re-analysis of the deposited data

How the results depend on the processing

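Of 5764 values of the 37 genes over 6 comparisons and 26 alternatives, 5607 stayed on their side of the threshold, 65 lost and 92 gained a call, and 0 reversed; 128 differed in sign but were called in neither fit. Without the 6 libraries with many reads on no gene, calls were lost between high and low cells under EPZ5676. Calls were also lost for EPZ5676 against DMSO in high and in low cells. Over all genes these comparisons lost calls too, as did EPZ5676 against DMSO in bulk cells and the interaction. The fit holds fewer samples, with 1 EPZ5676 high library and 1 EPZ5676 bulk library left.

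For EPZ5676 in bulk cells, the genes called, each lower, were 1 with library size alone, 5 without a filter, 3 with DESeq2 and 2 with the replicate block, where 0.778%, 1%, 1.6% and 0.712% of all genes passed. In high cells 5 were called with the replicate block and 8 with only the groups compared, each lower, where 2.9% and 8.5% of all genes passed, and 4 each with RLE factors, no filter, DESeq2 and limma-voom (2.91%, 2.16%, 4.36% and 3.12% of all genes). In low cells 5 were called without a filter, 4 with DESeq2, 2 with limma-voom and 2 with the replicate block, each lower, and 11 with only the groups compared (1 higher and 10 lower), where 0.848%, 1.72%, 1.19%, 0.955% and 6.27% of all genes passed. For the interaction, only the groups compared gave 1 call, higher, where 4.84% of all genes passed. The cause of these shifts was not tested.

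Leaving out each library in turn, calls ranged from 29 to 31 for high against low cells under DMSO (16 to 18 higher, 13 to 14 lower) and from 24 to 29 under EPZ5676 (14 to 17 higher, 9 to 13 lower). For EPZ5676 against DMSO they ranged from 0 to 4 in bulk (0 to 0 higher, 0 to 4 lower), 2 to 13 in high (0 to 1 higher, 2 to 12 lower) and 0 to 11 in low cells (0 to 1 higher, 0 to 10 lower), and for the interaction from 0 to 4 (0 to 3 higher, 0 to 1 lower). Without DMSO bulk replicate 1 came the highest of these 4 ranges. Calls over all genes moved in the same fits. They ranged from 39 to 550 in bulk, 200 to 2018 in high and 60 to 968 in low cells, and from 14 to 1072 for the interaction. For high against low cells they ranged from 9474 to 10798 under DMSO and from 8033 to 9496 under EPZ5676.

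The replicate numbers were not shown to pair the libraries. Over 45 pairs with the same number the correlation of deviations from group means ran from -0.34 to 0.296 (8 over 0.1). Its median was -0.005, against -0.004 over 90 pairs with other numbers, and 7 of 18 libraries correlated best with their own number. Such correlations cannot exclude that libraries of 1 number shared a culture. Pairs with other numbers ran from -0.405 to 0.4, so deviations were shared between some libraries. Among the 6 libraries with many reads on no gene, pairs from different groups ran from 0.07 to 0.315. Of these 6, only DMSO high replicate 3 is a DMSO library. The share of reads on no gene was not a term in the model, and its part in the results was not tested. With the replicate block, counts for high against low cells stayed within 1.5 times. CA9 and EGLN3 are limited by depth, and replicates number 3 a group.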

Other observations

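VEGFA, the gene of the main angiogenic growth factor and a known HIF target in the list of related genes, is described here after its values were seen. It stood at 759.9, 757 and 753 CPM in DMSO high, 57.3, 58.3 and 57.2 CPM in DMSO low and 273, 71.6 and 75.3 CPM in DMSO bulk libraries. With EPZ5676 it stood at 431, 389 and 446 CPM in high, 51.7, 50 and 61.9 CPM in low and 74.4, 61.8 and 62.8 CPM in bulk libraries. DMSO bulk replicate 1 was again far above its group, and high and low libraries did not overlap. The log2 fold change of high against low cells was 3.72 ± 0.43 (adjusted p = 8e-06) under DMSO and 2.95 ± 0.41 (adjusted p = 6.66e-05) under EPZ5676 in edgeR's quasi-likelihood test. In high cells the EPZ5676 libraries lay below the DMSO libraries without overlap, but the change did not pass, at -0.84 ± 0.38 (adjusted p = 0.301).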
